A study of Sus scrofa with 20 samples.

Results

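The cytosolic ribosomal protein genes were followed through RNA sequencing of epicardial adipose tissue, the fat that lies directly on the heart, from Ossabaw miniature pigs. Their rows were taken by name, as RPL, RPS or RPLP followed by a number, with the RPS6K kinases left out. This gave 76 of the 22861 rows of the first of 2 deposited tables, 47 for proteins of the large subunit and 29 for proteins of the small subunit. The 20 libraries came from pigs fed a Western diet with atorvastatin (WD+S, n = 8), a Heart Healthy diet with atorvastatin (HHD+S, n = 6) or the Heart Healthy diet alone (HHD, n = 6). Saturated fat, refined grain and cholesterol marked the Western diet, while the Heart Healthy diet supplied unsaturated fat, unrefined grain, vegetables and fruit. The diet label of the WD+S libraries reads atherogenic with statin. A Western diet without the drug was in the study's design, which named 32 boars and gilts in 4 groups, and is not analysed here, so the effect of diet was seen only in pigs given atorvastatin. The labels give neither age nor the sex of single pigs.

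The ribosome of the cytoplasm joins a small subunit, which reads the messenger RNA, to a large subunit, which makes the peptide bond. Each subunit holds ribosomal RNA and 1 copy of nearly every one of its proteins, so the proteins are needed in matching amounts. Most of their mRNAs are short, abundant and start with a run of pyrimidines, the TOP motif, through which mTOR signalling and LARP1 control their translation together. Roles given for single proteins are those known from human or yeast cells.

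Counts of unique exon reads summed to between 2749337 and 6543337 per library, and 3 counts, used as the detection floor, were worth between 0.458 and 1.09 CPM, which are counts scaled to the size of the library. Of the 12 adipocyte markers sought, 6 were tested, and their mean log2 CPM ran from 7.18 to 8.10 in WD+S, from 7.71 to 8.26 in HHD+S and from 7.52 to 8.55 in HHD. None of the 8 B and plasma cell markers passed the filter on low counts. HHD replicates 3 and 5 carried at least 50 reads of both XIST (1437 and 3396) and the 4 Y-linked genes (813 and 147), which the other 18 libraries did not. HHD replicate 3 also stood apart in the ribosomal protein genes, so comparisons with HHD are given with it and without it. Replicate numbers within a group follow no label and only name the libraries.

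Of the 76 rows, 61 passed the filter on low counts, 36 of the large and 25 of the small subunit, which together carry 59 gene symbols. The other 15 rows held almost nothing. There were 10 with no read in any library, among them RPL7, RPS4X and the testis paralog RPL10L, and 5 with between 1 and 10 reads over all 20 libraries. These rows say little about the genes, because 12 of the 15 are numbered copies of a symbol, such as RPS24_2, and for each of these symbols except RPLP1 another copy was tested. Of 12 symbols listed under several numbered rows, 9 had 1 tested row, RPS16 and RPS21 had 2, and RPLP1 had none. The row RPS4 is assigned to RPS4X, the X-linked form, by the gene name table, and it held between 1181 and 1998 CPM in the 20 libraries. RPL36A_1 had counts within 5% of those of the paralog RPL36AL in the second table in 17 of 20 libraries, so which of the 2 genes it measures is uncertain. RPLP1, RPS3A, RPLP2, RPS23 and RPS3 are among 6 genes tested only as rows with an Ensembl ID, outside the naming rule, and are described apart. RPL22L1, RPL39L and RPS4Y1 were not analysed here.

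Levels of different genes were compared per length, with the RPKM, reads scaled to gene length and library size, that the authors' second table gives for 22 ribosomal protein genes. Most had means between 669 and 2638 RPKM over the 20 libraries. RPS15A, a small-subunit protein, had the highest mean, 2747 ± 187 RPKM in WD+S, 2686 ± 209.9 RPKM in HHD+S and 2445 ± 673 RPKM in HHD (SD, n = 8, 6 and 6). RPL10, which is fitted late into the large subunit and is needed for the subunits to join, had 2189.9 ± 232 RPKM in WD+S, 2226 ± 206 RPKM in HHD+S and 1928 ± 457 RPKM in HHD. In both genes the ranges of the groups overlapped. RPL32 followed with 1967 ± 221, 1851 ± 98.5 and 1727 ± 418 RPKM in WD+S, HHD+S and HHD. RPL11, which with RPL5 and the 5S RNA can bind the p53 regulator MDM2, had 1892 ± 166 RPKM in WD+S, 1723 ± 259.6 RPKM in HHD+S and 1781 ± 430.1 RPKM in HHD. RPL41, whose product is among the shortest proteins known, had 1874 ± 86.7 RPKM in WD+S, 1746 ± 430.7 RPKM in HHD+S and 1690.1 ± 589 RPKM in HHD.

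From RPS15A down to RPL31, with 703 ± 140.3 RPKM in WD+S, 646 ± 49.0 RPKM in HHD+S and 646 ± 147 RPKM in HHD, the order of neighbours was not fixed. Of the 21 pairs of neighbours in the order of mean RPKM, 3 kept their order in all 20 libraries, and these were the steps from RPL31 to RPL36AL, RPL26L1 and RPLP0L. RPS15A was above RPL10 in 19 libraries, while RPL11 was above RPL41 in 8. The large subunit's stalk protein RPLP0, which helps to recruit elongation factors, had 1540.1 ± 119 RPKM in WD+S, 1504 ± 125 RPKM in HHD+S and 1417 ± 290.0 RPKM in HHD.

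The paralogs formed the low end. RPL36AL, a copy of RPL36A, had 292 ± 29.6 RPKM in WD+S, 294 ± 23.8 RPKM in HHD+S and 283 ± 66.1 RPKM in HHD. RPL26L1, a close paralog of RPL26, had 59.7 ± 9.50 RPKM in WD+S, 58.8 ± 5.14 RPKM in HHD+S and 51.3 ± 8.53 RPKM in HHD. RPLP0L had 7.43 ± 2.02, 8.37 ± 1.95 and 6.60 ± 0.714 RPKM in WD+S, HHD+S and HHD. The tables count these genes differently: RPL11, RPL12, RPL13A, RPL31, RPL5 and RPL8 had counts within 2% of each other in both tables in every library, but the first table held only between 48.8% and 53.0% of the second table's reads for RPL32, between 30.9% and 38.6% for RPL37A and between 20.7% and 24.5% for RPL35A. Copies and pseudogenes can split such reads, so these levels are uncertain.

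**Figure D1:**
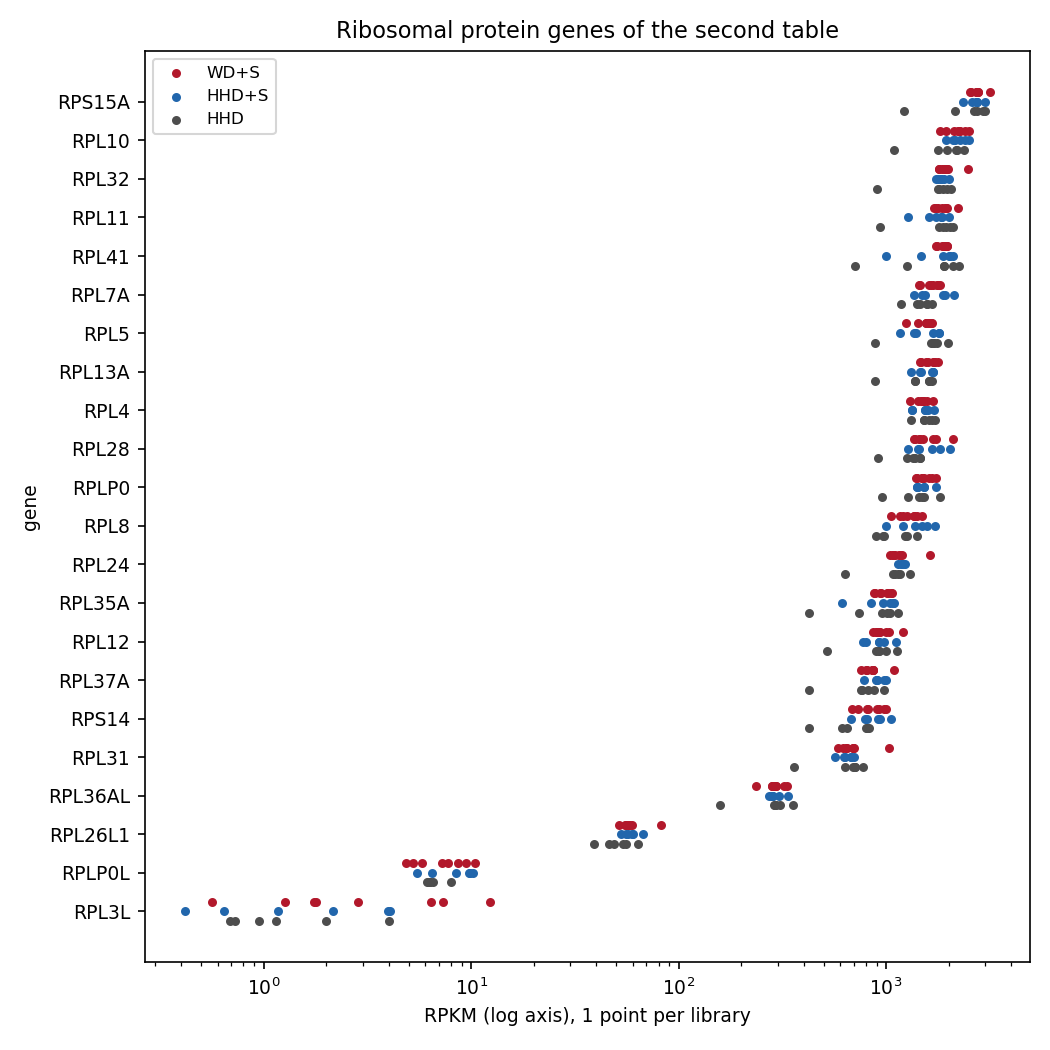
RPKM of the 22 ribosomal protein genes of the second table, on a log axis, with 1 point per library and WD+S above HHD+S above HHD within each gene. The genes from RPS15A to RPL31 lie in a band of high values, RPL26L1, RPLP0L and RPL3L lie far below it, and a single HHD library lies left of the others for most genes of the band.

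Together the 76 rows took between 4.16% and 5.44% of the counts of 19 libraries. The share was 4.66 ± 0.378% in WD+S, 4.70 ± 0.265% in HHD+S and 4.40 ± 0.792% in HHD (SD, n = 8, 6 and 6). HHD replicate 3 lay far below, at 2.82%. Without it the HHD share was 4.72 ± 0.176% (n = 5), and the shares of the 3 groups overlapped. The highest shares were those of WD+S replicate 7, 5.44%, and HHD+S replicate 3, 5.18%.

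Rows of the large subunit had more counts in sum than rows of the small subunit in each library. The ratio of large to small was 1.38 ± 0.0156 in WD+S, 1.39 ± 0.0583 in HHD+S and 1.45 ± 0.101 in HHD, and 1.41 ± 0.0346 in HHD without replicate 3. It is a ratio of counts, which depends on the lengths and number of the rows, and not a ratio of proteins. The ratio was highest in HHD replicate 3, at 1.64, and next in HHD+S replicate 5, at 1.498. The other 18 libraries ran from 1.34 to 1.46.

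**Figure D2:**
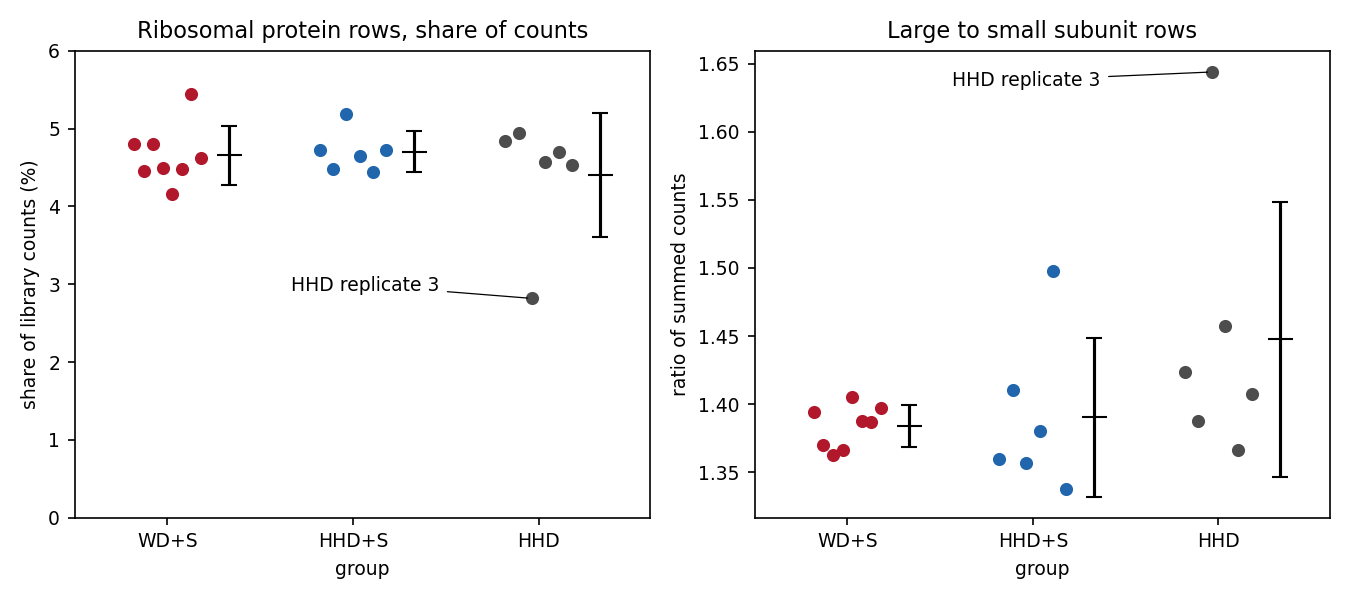
Share of a library's counts on ribosomal protein rows (left, percent, axis from 0) and ratio of the summed counts of large to small subunit rows (right, axis not from 0), with 1 point per library and the mean and SD beside each group (WD+S n = 8, HHD+S n = 6, HHD n = 6). HHD replicate 3 has the lowest share, 2.82%, and the highest ratio, 1.64.

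HHD replicate 3 stood furthest apart. As a deviation from a gene's median log2 CPM over the 20 libraries, the median of the 61 tested rows there was -0.86, while in the other 19 libraries it ran between -0.18 and 0.26. Of the 61 rows, 60 were below their median in this library and 57 had their lowest value in it. The median deviation over all 11366 tested genes there was -0.0045.

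The deviation was uneven and was larger in the small subunit. The median deviation was -1.01 for the 25 small-subunit rows and -0.82 for the 36 large-subunit rows, and 13 of 25 small-subunit rows were below -1, against 6 of 36 large-subunit rows. The row furthest down was RPL22, a large-subunit protein that binds several viral and cellular RNAs, with 187 CPM in HHD replicate 3 and between 426 and 566 CPM in the other HHD libraries. RPL39, a tiny protein of the peptide exit tunnel, had 249 CPM there and between 447 and 668 CPM in the others, and RPS26_1, of the small subunit's mRNA exit channel, had 208 CPM there and between 462 and 606 CPM. In these members the library fell outside the range of its group.

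At the other end stood RPL3, which reaches into the peptidyl transferase centre, with 1480.4 CPM in HHD replicate 3 and between 1164 and 1422 CPM in the other HHD libraries, the only tested row above its median there. RPL4, which lines the exit tunnel, had 1738 CPM in that library and between 1948 and 2259 CPM in the others, a deviation of -0.16. RPS6, the substrate of the S6 kinases, had 997 CPM in that library and between 1231 and 1408 CPM in the others, a deviation of -0.35. RPL7L1, RPS2, RPL7A and RPL8 were also among the rows nearest to their median, with deviations from -0.29 to -0.42. Of the 11 rows above -0.5, 9 belonged to the large subunit.

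The deviations in HHD replicate 3 went with gene length, a comparison chosen after the values were seen. Lengths were implied by the ratio of reads to RPKM in the second table and ran from 0.409 kb for RPL37A to 1.44 kb for RPL4 over 19 ribosomal protein genes. RPL41 stood lowest there, with a deviation of -1.41, and RPL4 highest, with -0.20. The 10 ribosomal protein genes under 0.75 kb had a median deviation of -0.99, and the 9 between 0.75 and 1.5 kb had -0.63.

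Other short genes were low in the same library. The median deviation was -0.71 over 43 other genes under 0.75 kb, -0.27 over 350 between 0.75 and 1.5 kb, 0.06 over 1449 between 1.5 and 3 kb and 0.01 over 2860 genes over 3 kb. The other short genes stood 0.72 below the genes over 3 kb in HHD replicate 3. In WD+S replicate 7 and HHD+S replicate 3, where the ribosomal protein rows were highest, the other short genes stood 0.28 and 0.34 above the long ones. In HHD+S replicate 6 the short genes stood 0.38 above the long ones. The median of the ribosomal protein genes there was 0.06 in the second table, which gave the lengths, and 0.10 in the first. The libraries did not always move this way. In HHD replicate 1 the short genes stood 0.24 below the long ones, while the median of the ribosomal protein genes was 0.10 in the second table and 0.09 in the first. The part of length in the values of HHD replicate 3 was not tested.

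**Figure D3:**
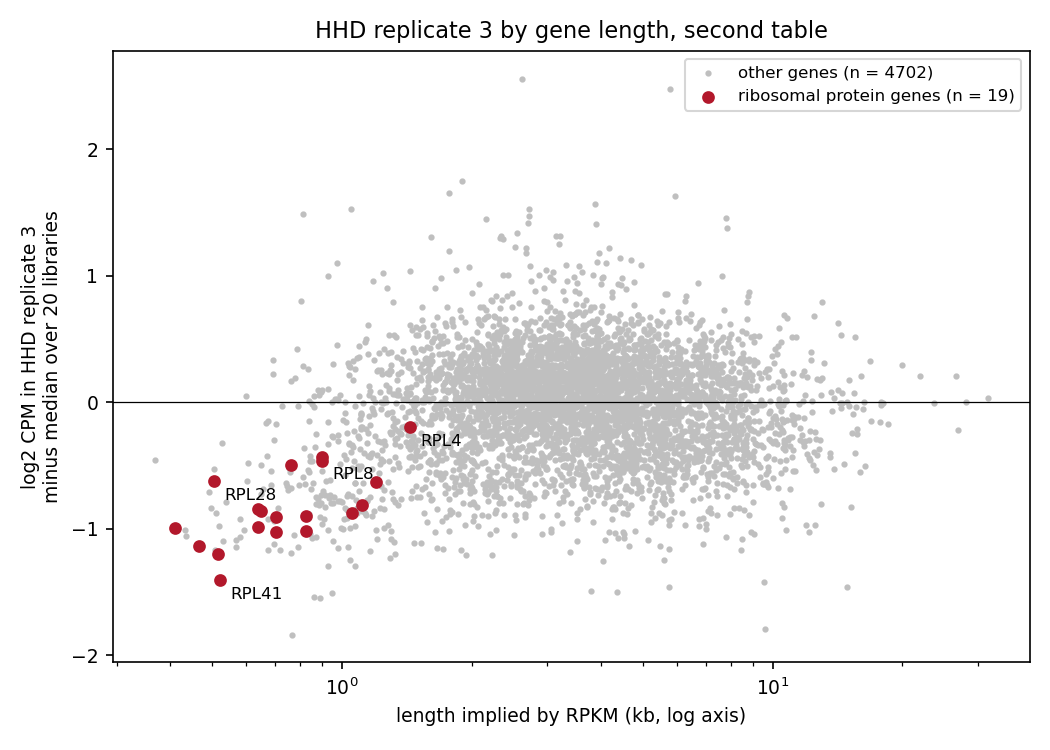
Deviation of each gene of the second table in HHD replicate 3 from its median log2 CPM over 20 libraries (vertical) against the length implied by its RPKM (horizontal, kb, log axis), for 19 ribosomal protein genes (red) and 4702 other genes (grey). All 19 lie below 0, from RPL4 at -0.20 to RPL41 at -1.41, and the cloud of other genes bends down at the short end.

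Some other groups of genes differed in that library too, and some did not. The 6 ribosomal protein genes outside the naming rule had a median deviation of -1.02, RPLP1 among them with -1.20. The 56 tested mitochondrial ribosomal proteins, encoded in the nucleus and built into another ribosome, had -0.39, and 33 translation factors and other TOP genes had -0.29. The 43 tested genes of ribosome assembly and rRNA synthesis had 0.04, and 20 genes of TOP mRNA control had -0.01. Mean log2 CPM of the adipocyte, cardiomyocyte, macrophage, T and NK cell and erythroid markers lay within the range of the other libraries. So did that of the fibroblast, mesothelial, neuronal and cell cycle markers. The mean log2 CPM of 20 respiratory chain genes was 5.56 in HHD replicate 3, the lowest of all, and from 6.24 to 6.95 in the other libraries. The endothelial score, over 5 of 7 markers, was 8.29 there, the highest of all, and from 7.55 to 8.15 in the others. The part of these differences, and of the reads from both XIST and the Y-linked genes, was not tested.

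The spread of the ribosomal protein genes depended on this library. The median SD of log2 CPM over the 61 rows was 0.25 with all 20 libraries and 0.17 without HHD replicate 3. That library was set apart by its low values in these same rows, so leaving it out lowers their SD by choice. Over 1598 other genes with a mean log2 CPM from 6.78 to 11.02, the median SD was 0.24 with all libraries and 0.22 without that one. Ribosomal protein rows of few counts, such as RPS21_2 and RPS16_2, lie below these levels, so the sets are not fully matched. The steadiest row without that library was RPS13, of the small subunit, with an SD of 0.10, and the least steady was RPS21_2, with 0.36, a row of few counts. RPS21_2 had 5.62 CPM in HHD+S replicate 5 and 6.46 CPM in HHD replicate 3, and otherwise between 8.06 and 17.4 CPM. HHD+S replicate 5 was also low for other small-subunit rows, with a median deviation of -0.23 against -0.13 for large-subunit rows.

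With all 20 libraries, the 5 rows with the largest SD were RPS16_2, RPS21_2, RPS27, RPL22 and RPS26_1, and the 5 with the smallest were RPL4, RPL3, RPS6, RPL7L1 and RPS13. RPS27, a zinc-finger protein of the small subunit, had from 525 to 699 CPM in WD+S, from 401 to 734 CPM in HHD+S libraries and from 255 to 741 CPM in HHD. Its range in HHD spanned that of both other groups only through replicate 3, and ran from 429.9 to 741 CPM without it.

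WD+S against HHD+S sets the diets against each other in pigs that all received atorvastatin. No ribosomal protein row passed the threshold of edgeR's quasi-likelihood test, an adjusted p of 0.05 (0 of 61 rows, against 0.0% of all 11366 tested genes), and none had an unadjusted p under 0.05, against 8.69% of all tested genes. The same held for the 61 rows without HHD replicate 3, against 9.12% of all tested genes. DESeq2 and limma-voom also called 0 of the 61, and had 0 rows at an unadjusted p under 0.05, against 1014 and 1354 of 11366 tested genes. The median log2 fold change was -0.01, the same as over all tested genes, and 24 of 61 rows had a positive fold change, against 48.2% of all genes. The large subunit's median was -0.02 and the small subunit's -0.01. For 59 of 61 rows the 95% interval of the fold change lay within a factor of 1.5 either way, a log2 fold change of 0.58, and for all 61 within a factor of 2.

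The rows nearest to a difference were small in size. RPS2, at the mRNA entry of the small subunit, had from 129 to 200.3 CPM with a median of 159 in WD+S, against 152 to 226 CPM with a median of 182 in HHD+S. Its log2 fold change was -0.18 (SE 0.12, edgeR adjusted p = 0.70), and the groups overlapped. RPS27L, a paralog of RPS27 that p53 induces, had from 54.0 to 84.4 CPM with a median of 71.2 in WD+S, against 68.9 to 89.0 CPM with a median of 81.1 in HHD+S, and also -0.18 (SE 0.13, edgeR adjusted p = 0.74). RPL8, at the peptidyl transferase centre, had -0.14 and RPL3 had -0.09.

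On the positive side the largest values belonged to rows of few counts. RPS21_2 had from 11.7 to 17.4 CPM in WD+S, against 5.62 to 15.1 CPM in HHD+S, and a log2 fold change of 0.27 (SE 0.21). RPS16_2 had from 4.45 to 8.90 CPM in WD+S, against 4.15 to 6.70 CPM in HHD+S, and 0.27 (SE 0.25). RPL15 had 0.17 (SE 0.19), RPL11 0.10 and RPL31_1 0.09, and the adjusted p of the 5 rows lay between 0.76 and 0.91 in edgeR. The groups overlapped in each of them. No ribosomal protein row separated WD+S from HHD+S without overlap, against 0.0704% of all tested genes.

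Within pool 1, a number in the file names whose meaning is not given, the median fold change of the 61 rows was -0.10 (4 against 4 libraries, 12 positive), and within pool 2 it was 0.11 (4 against 2, 42 positive). Without WD+S replicate 7 the median over all libraries was -0.06 with 9 rows positive, and without HHD+S replicate 3 it was 0.02 with 35 positive, the only 1 of 20 such fits with a median above 0. The file names also hold a letter and a code whose meaning is not given. The letter B, which goes with the code C4, stands on HHD+S replicates 3 and 6 and HHD replicate 2 and on no WD+S library, and the median deviations of the ribosomal protein rows there were 0.20, 0.10 and 0.09, among the 5 highest of the 20 libraries. Without these 3 libraries the median fold change in WD+S against HHD+S turned to 0.05 with 46 of 61 rows positive, and with the code as a term to 0.03 with 42 positive. Both fits, chosen after the values were seen, called 0 rows.

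HHD+S against HHD sets atorvastatin against no drug on the Heart Healthy diet. Again edgeR called 0 of 61 rows (0.0% of all tested genes), and DESeq2 and limma-voom called none. At an unadjusted p under 0.05 there was 1 row, against 8.45% of all tested genes. DESeq2 had 3 such rows and limma-voom 0, against 951 and 783 of 11366 tested genes. The most in any alternative was 6 rows, all higher in HHD+S, without HHD+S replicate 2, against 1292 of 11468 tested genes. Several alternatives had 0. A positive fold change was seen in 48 of 61 rows, against 48.1% of all genes, with a median log2 fold change of 0.11 against -0.01. The small subunit's median was 0.17 and the large subunit's 0.07.

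HHD replicate 3 was set apart by its low values in these same rows, so leaving it out lowers this shift by choice. Without it the median was 0.01, 31 of 61 rows were positive, and none had an unadjusted p under 0.05 in edgeR (10.1% of all tested genes). Within pool 1, which holds that library, the median was 0.22 with 58 rows positive (4 against 4). Without the library it was 0.01. Within pool 2 it was -0.03 with 26 positive (2 against 2). With HHD replicate 3 kept, leaving out the letter B libraries gave 0.08 with 46 positive, and the code as a term 0.09 with 44 positive. Leaving out HHD+S replicate 3, a library with high values, gave a median of 0.08, and the other leave-one-out fits gave from 0.08 to 0.17.

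RPL8 had from 872 to 1559 CPM with a median of 1305 in HHD+S, against 823 to 1339 CPM with a median of 989 in HHD, and its log2 fold change was 0.29 (SE 0.14, edgeR adjusted p = 0.59), or 0.24 without HHD replicate 3. RPS9, at the mRNA entry, had from 444 to 818 CPM with a median of 595 in HHD+S, against 289 to 615 CPM with a median of 519.8 in HHD, and 0.32 (SE 0.15, edgeR adjusted p = 0.60). The lowest RPS9 value is that of HHD replicate 3, and without it the fold change was 0.20. The ranges overlapped in both.

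RPL18 and RPS2 followed, with log2 fold changes of 0.25 and 0.24 and edgeR adjusted p of 0.62 for both, and 0.16 and 0.19 without HHD replicate 3. The rows with a negative fold change and the smallest p were RPS4 (-0.10), RPL4 (-0.07), RPL15 (-0.13), RPL5_1 (-0.08) and RPL6 (-0.06), with edgeR adjusted p between 0.85 and 0.92. All 5 lay further below 0 without HHD replicate 3, at -0.19 for RPS4, -0.11 for RPL4, -0.27 for RPL15, -0.21 for RPL5_1 and -0.15 for RPL6, with edgeR adjusted p between 0.50 and 0.69. All 5 were lowest of HHD in that library, so leaving it out must lower their fold changes. The 95% interval lay within a factor of 1.5 for 56 of 61 rows, or 59 without that library, and within a factor of 2 for all. No row separated the groups without overlap, against 0.114% of all tested genes.

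WD+S against HHD changes diet and drug together, and it shares its HHD libraries with the comparison before. EdgeR called 0 of 61 rows (0.0% of all tested genes), and DESeq2 and limma-voom called none. In each of these tools 0 rows had an unadjusted p under 0.05. Of all tested genes, 11.4% had such a p in edgeR, and 1344 and 1392 of 11366 in DESeq2 and limma-voom. The fold change was positive in 53 of 61 rows, against 46.2% of all genes, with a median of 0.11 against -0.02 over all genes, 0.10 for the large and 0.15 for the small subunit.

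Without HHD replicate 3 the median was -0.0044 with 29 of 61 rows positive. Here too, leaving out a library chosen for its low values in these rows lowers the median by choice. Then 2 rows had an unadjusted p under 0.05, both lower in WD+S, against 11.3% of all tested genes: RPL5_1, which binds the 5S RNA, with a log2 fold change of -0.23 (edgeR adjusted p = 0.44), and RPS4 with -0.21 (edgeR adjusted p = 0.39). With HHD replicate 3 kept, leaving out WD+S replicate 7 gave a median of 0.06 with 43 positive. With HHD replicate 3 kept, leaving out the letter B libraries gave 0.15 with 52 positive. There RPS16_1 (0.33) and RPL26L1 (0.30) had an unadjusted p under 0.05, as had 1286 of 11541 tested genes. Their edgeR adjusted p were 0.44 and 0.39. With the code as a term over all libraries the median was also 0.15. RPL18 (0.28) and RPS16_1 (0.32) then had such a p, as had 1418 of 11366 tested genes. Their edgeR adjusted p were 0.28 and 0.38. Within pool 1 the median was 0.12 with 50 rows positive, and -0.06 without HHD replicate 3. Within pool 2 it was 0.07 with 50 positive.

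The positive rows with the smallest p were RPL18, RPL26L1, RPS15, RPL35 and RPS16_1, with log2 fold changes between 0.22 and 0.25 and edgeR adjusted p between 0.49 and 0.57. RPL18 had from 173 to 217 CPM with a median of 197 in WD+S, against 115 to 209 CPM with a median of 170.5 in HHD. RPS15, of the head of the small subunit, had from 779 to 1038 CPM with a median of 890.4 in WD+S, against 446 to 940.2 CPM with a median of 814 in HHD. Each of these rows overlapped between the groups, and each was nearer to 0 without HHD replicate 3, at 0.14 for RPL18, 0.16 for RPL26L1, 0.11 for RPS15, 0.12 for RPL35 and 0.11 for RPS16_1. Each was lowest of HHD in that library, so leaving it out must lower these values.

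The negative rows with the smallest p were RPL4 (-0.11), RPS4 (-0.12), RPL7L1 (-0.10), RPL6 (-0.09) and RPL5_1 (-0.11), with edgeR adjusted p between 0.70 and 0.82. With HHD replicate 3 left out, RPL4 had -0.15, RPS4 -0.21, RPL7L1 -0.16, RPL6 -0.18 and RPL5_1 -0.23, with edgeR adjusted p between 0.39 and 0.53. These rows too were lowest of HHD in that library, so the direction of this change was given in advance. RPL4 had from 1620.5 to 2119.9 CPM with a median of 1896 in WD+S, against 1738 to 2259 CPM with a median of 2086 in HHD. RPL7L1, a paralog linked to ribosome assembly in human cells, had from 90.0 to 126 CPM with a median of 105 in WD+S, against 89.3 to 128 CPM with a median of 115 in HHD. The groups overlapped. The 95% interval lay within a factor of 1.5 for 59 of 61 rows, with or without HHD replicate 3, and no row separated the groups, against 0.194% of all tested genes.

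**Figure D4:**
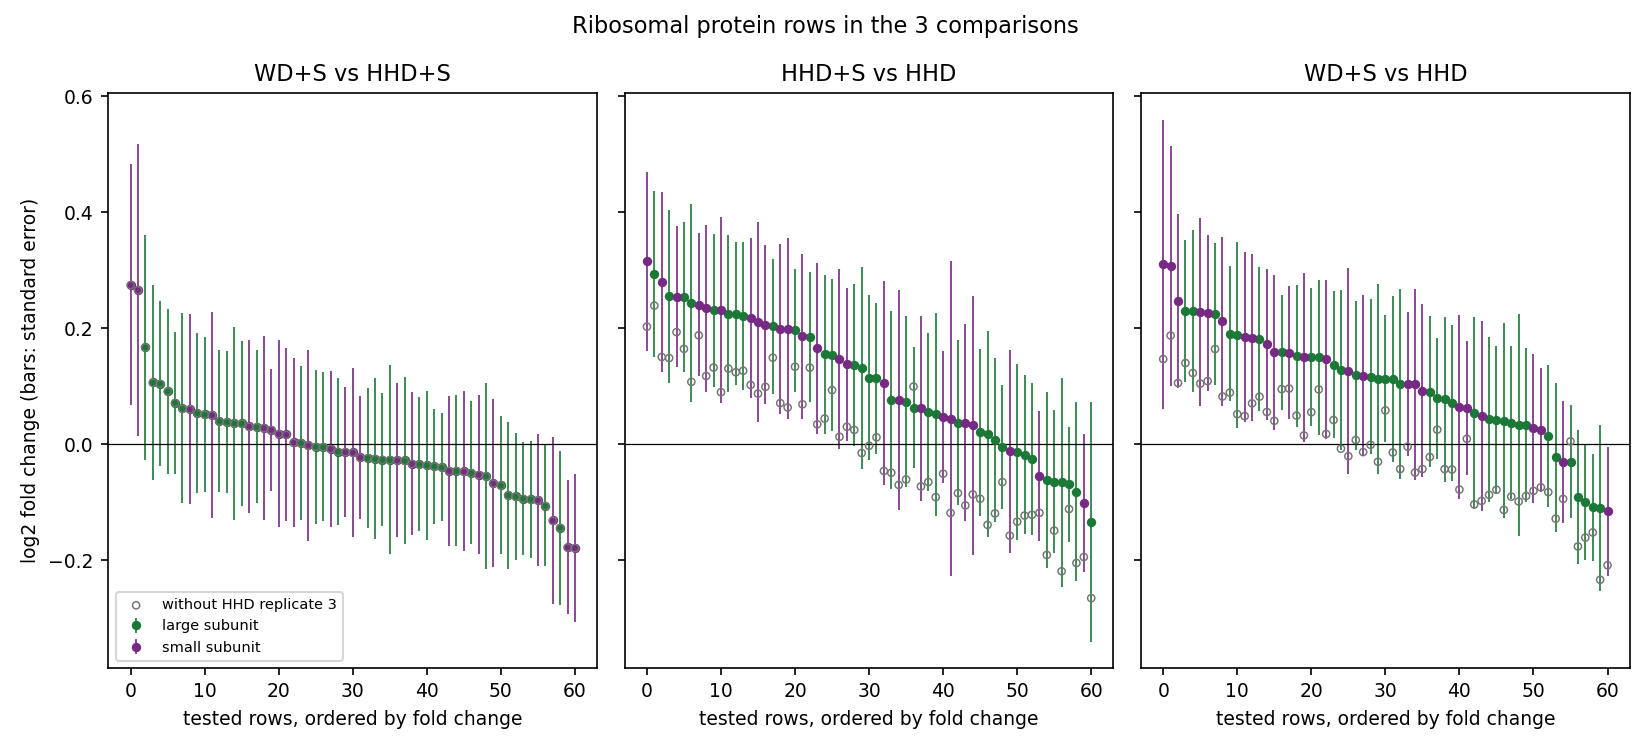
Log2 fold changes of the 61 tested rows in WD+S against HHD+S, HHD+S against HHD and WD+S against HHD (filled points, bars show the standard error, large subunit green, small subunit purple), ordered by size, with the values without HHD replicate 3 as open circles. The open circles lie lower in nearly all rows of both comparisons with HHD and coincide with the filled points in the first.

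Paralogs were set against the gene they resemble. RPL26L1 had 2.47 ± 0.240% of the counts of RPL26 in WD+S, 2.44 ± 0.145% in HHD+S and 2.204 ± 0.464% in HHD (SD, n = 8, 6 and 6). This share is uncertain, because the first table held between 65.7% and 89.3% of the second table's counts for RPL26L1. RPS27L had 11.9 ± 1.63% of those of RPS27 in WD+S, 14.3 ± 2.22% in HHD+S and 13.3 ± 2.64% in HHD, with ranges that overlapped. In HHD replicate 3 the share of RPS27L was 16.7%, second highest of the 20 libraries. The rows RPS16_2 and RPS21_2 had 1.52%, 1.29% and 1.47%, and 8.24%, 6.77% and 7.80%, of the counts of RPS16_1 and RPS21_1 in WD+S, HHD+S and HHD. By the gene names, the symbol RPS21 belongs to RPS21_2 and RPS21_1 has none, so which of these rows is the copy is uncertain. RPS27A, a fusion of ubiquitin with a small-subunit protein, had 589.7 CPM in HHD replicate 3, against 946 to 1687 CPM in the other 19 libraries.

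RPL3L, the paralog of RPL3 that striated muscle uses, is present in the second table only. It had from 0.563 to 12.4 RPKM with a median of 2.32 in WD+S, against 0.418 to 4.09 RPKM with a median of 1.67 in HHD+S and 0.690 to 4.02 RPKM with a median of 1.05 in HHD. The groups overlapped, and between 2 and 69 reads stood behind each value. The log2 fold change was 1.36 in WD+S against HHD (SE 0.63, edgeR adjusted p = 0.42) and 1.02 in WD+S against HHD+S (SE 0.62, edgeR adjusted p = 0.73). Without HHD replicate 3 the value in WD+S against HHD was 1.87 (SE 0.68, edgeR adjusted p = 0.33). The highest level was in WD+S replicate 5, where the sarcomere genes MYH7 and ACTN2 were also highest, at 2917 and 409 CPM. The mean log2 CPM of 13 tested cardiomyocyte markers, of 18 sought, ran from 3.69 to 7.73 in WD+S, from 1.66 to 5.28 in HHD+S and from 2.69 to 5.59 in HHD. The part of heart muscle in the RPL3L values was not tested, and in bulk tissue fewer cells of a type and less RNA per cell cannot be told apart.

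Genes that work with the ribosomal proteins, and those of the separate mitochondrial ribosome, were read from 4 lists. EdgeR, DESeq2 and limma-voom called none of their tested genes in any comparison. Of 33 translation factors and other TOP genes, 0 higher and 1 lower had an unadjusted p under 0.05 in WD+S against HHD+S, 1 higher and 0 lower in HHD+S against HHD, and 0 higher and 2 lower in WD+S against HHD. Without HHD replicate 3 there were 0 higher and 4 lower in HHD+S against HHD, and 0 higher and 5 lower in WD+S against HHD. Of all tested genes, 5.9% were higher and 2.79% lower at this p in the first comparison, 4.72% and 3.73% in the second, and 7.56% and 3.87% in the third. Without HHD replicate 3 these shares were 4.92% and 5.17% in the second and 6.26% and 5.09% in the third, and edgeR again called none of the listed genes. EIF5B, which joins the subunits at initiation, had a mean of 111 ± 12.2 CPM in WD+S, against 135 ± 27.2 CPM in HHD, a log2 difference of -0.29 (SE 0.11, edgeR adjusted p = 0.29), or -0.37 without HHD replicate 3. PABPC1, the poly(A) binding protein, had a mean of 795 ± 79.5 CPM in WD+S, against 917 ± 86.5 CPM in HHD, a difference of -0.21 (SE 0.10, edgeR adjusted p = 0.41), or -0.17 without that library.

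Of 43 genes of ribosome assembly and rRNA synthesis, 0 higher and 3 lower had an unadjusted p under 0.05 in WD+S against HHD+S, 2 higher and 2 lower in HHD+S against HHD, and 0 higher and 3 lower in WD+S against HHD. With HHD replicate 3 left out there were 2 higher and 4 lower in HHD+S against HHD, and 0 higher and 2 lower in WD+S against HHD. TAF1D, a subunit of the factor that places RNA polymerase I on rRNA genes, averaged 13.1 ± 1.98 CPM in WD+S, 11.5 ± 3.18 CPM in HHD+S libraries and 18.5 ± 2.47 CPM in HHD. Its log2 fold change was -0.68 in HHD+S against HHD (SE 0.17, edgeR adjusted p = 0.40) and -0.50 in WD+S against HHD (SE 0.15, edgeR adjusted p = 0.22), and -0.69 and -0.51 without HHD replicate 3. MRTO4, an assembly factor of the ribosomal stalk, had a mean of 46.9 ± 2.57 CPM in HHD+S libraries, against 34.8 ± 3.19 CPM in HHD, a difference of 0.43 (SE 0.14, edgeR adjusted p = 0.40), or 0.44 without HHD replicate 3. FBL, the rRNA methyltransferase fibrillarin, had a mean of 53.3 ± 8.52 CPM in WD+S, against 66.4 ± 13.3 CPM in HHD+S, a difference of -0.32 (SE 0.14, edgeR adjusted p = 0.51).

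Of 20 genes of TOP mRNA control, 0 higher and 1 lower had an unadjusted p under 0.05 in WD+S against HHD+S, 2 higher and 2 lower in HHD+S against HHD, and 0 higher and 1 lower in WD+S against HHD. When HHD replicate 3 was left out there were 3 higher and 2 lower in HHD+S against HHD, and 0 higher and 2 lower in WD+S against HHD. The kinase AKT2, upstream of mTOR, had a mean of 280.4 ± 48.8 CPM in WD+S, against 371 ± 67.7 CPM in HHD+S, a difference of -0.40 (SE 0.16, edgeR adjusted p = 0.44). RRAGC, a GTPase that brings mTOR to the lysosome, had a mean of 44.1 ± 3.92 CPM in WD+S, against 52.3 ± 4.82 CPM in HHD, a difference of -0.25 (SE 0.10, edgeR adjusted p = 0.31), or -0.30 without HHD replicate 3.

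Of 56 mitochondrial ribosomal proteins, 0 higher and 1 lower had an unadjusted p under 0.05 in WD+S against HHD+S, 9 higher and 0 lower in HHD+S against HHD, and 4 higher and 1 lower in WD+S against HHD. Their median log2 fold changes were -0.10, 0.13 and 0.05 in these comparisons. Their median deviation in HHD replicate 3 was -0.39, and without that library there were 6 higher and 0 lower in HHD+S against HHD, with a median of 0.10, and 2 higher and 1 lower in WD+S against HHD, with a median of 0.0065. MRPL21 had a mean of 35.1 ± 5.87 CPM in HHD+S libraries, against 26.3 ± 4.33 CPM in HHD, a difference of 0.41 (SE 0.13, edgeR adjusted p = 0.40), or 0.35 without HHD replicate 3. MRPS18B had a mean of 47.9 ± 7.73 CPM in WD+S, against 62.1 ± 10.8 CPM in HHD+S, a difference of -0.37 (SE 0.13, edgeR adjusted p = 0.38). Of the 6 cytosolic ribosomal proteins outside the naming rule, the stalk protein RPLP2 had an unadjusted p under 0.05 in both comparisons with HHD. RPLP2 averaged 1041 ± 131 CPM in WD+S, 1090.04 ± 219.9 CPM in HHD+S libraries and 820 ± 193 CPM in HHD, with log2 fold changes of 0.41 in HHD+S against HHD (SE 0.16, edgeR adjusted p = 0.51) and 0.35 in WD+S against HHD (SE 0.15, edgeR adjusted p = 0.38). RPLP2 had 464 CPM in HHD replicate 3. Without that library the fold changes were 0.29 (SE 0.13, edgeR adjusted p = 0.48) and 0.22 (SE 0.13, edgeR adjusted p = 0.51), with unadjusted edgeR p of 0.043 and 0.092.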

How the data were processed

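RNA of epicardial adipose tissue with a quality number above 7 was sequenced after mRNA purification, per the labels' protocols. Aligner and counting: not given in the sources used here. Named in the submitters' processing notes are the build Sscrofa10.2 and bcl2fastq 2.17.1.14. Each library has 2 deposited tables. Counts of unique exon reads, per the file headers, fill the first, which gave all main results. The second, per the file headers, holds counts of unique gene reads and RPKM values for 10157 rows, a different gene set. Strand was not stated, so overlapping genes cannot be told apart. No positions or sequences were used.

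Counts were tested with the quasi-likelihood F test of edgeR 4.0.16 under R 4.3.3, with TMM scaling, the expression filter (minimum count 10, total 15), 1 fit over 20 libraries and Benjamini-Hochberg adjustment over all 11366 genes. The script was tested on simulated data. DESeq2 1.42.0 and limma 3.58.1 (voom with quality weights) were alternatives. CPM use TMM-scaled sizes, log2 CPM a prior count of 2. The approximate SE of a log2 fold change is its size divided by the root of F. Intervals and floors cover counting or library spread only. Nothing states that libraries came from separate pigs, so p-values measure the spread between these libraries. Named rows are, per comparison, the 5 with the smallest p in each direction, the 5 with the largest and smallest SD, the 5 with the highest and lowest RPKM, and paralogs, stalk proteins and copies; other rows named were chosen after their values were seen. Some rows that the rule names are not reported here. Members, lists and alternatives were chosen with earlier results of these data known.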

Additional observations from a re-analysis of the deposited data

Results flagged for a closer look

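In HHD (n = 6), HHD replicate 3 lay far from the other libraries in the share of ribosomal protein counts, 2.82% against 4.54% to 4.95% in the others, and in the ratio of large to small subunit counts, 1.64 against 1.37 to 1.46. Of the rows named by rule it also lay far below in RPL35 (515 CPM), RPS13 (398 CPM), RPL31_1 (305 CPM), RPL5_1 (933 CPM), RPS26_1 (208 CPM), RPL22 (187 CPM), RPL11 (608 CPM) and RPS4 (1181 CPM). Over all 61 tested rows, 24 had a library apart in HHD by Dixon's criterion, and in all 24 it was replicate 3. This is 39.3%, against 7.93% of all tested genes, where chance gives about 1 in 20 groups for a single row. The rows moved together, with 60 of 61 below their median in replicate 3, so the 24 are not separate events.

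In WD+S (n = 8), replicate 7 lay far above the others in RPL35 (1372 CPM against 789 to 1049), RPL31_1 (847 CPM against 496 to 564), RPL6 (2589 CPM) and RPL26L1 (52.8 CPM), and replicate 4 lay below them in RPL5_1 (1256 CPM against 1503 to 1683). Over the 61 rows, 23 had a library apart in WD+S, which is 37.7%, against 9.09% of all tested genes. Rows of the same libraries are not separate events here either. In HHD+S (n = 6) there was 1 such row, 1.64% against 5.87%. The causes were not tested.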

How the results depend on the processing

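In all alternatives run, 0 ribosomal protein rows were called in each comparison, and 336 fold changes of single named rows kept their direction and side of the threshold. The shares and ratios moved with other sets of rows. In the second table, where all but RPS14 and RPS15A belong to the large subunit, the share was 2.10% in WD+S, 2.08% in HHD+S and 1.93% in HHD, and the ratio of large to small counts was 10.199 in WD+S, 10.226 in HHD+S and 11.1 in HHD. With numbered copies left out, the ratio was 1.49 in WD+S and in HHD+S and 1.55 in HHD, or 1.51 in HHD without replicate 3. Without single libraries, the medians ran from -0.06 to 0.02 in WD+S against HHD+S, from 0.01 to 0.17 in HHD+S against HHD and from -0.0044 to 0.15 in WD+S against HHD; the shares ran from 4.55% to 4.73% in WD+S, from 4.61% to 4.75% in HHD+S and from 4.29% to 4.72% in HHD. The ratios ran from 1.38 to 1.39, from 1.37 to 1.401 and from 1.41 to 1.46 in these groups. RPL31_1 in WD+S against HHD+S ran from -0.025 without WD+S replicate 7 to 0.12, and the cause was not tested. Without HHD replicates 3 and 5 together the medians were 0.01 in HHD+S against HHD and -0.02 in WD+S against HHD. DESeq2 called 10, 10 and 69 genes over the whole table in the 3 comparisons, none of them a ribosomal protein row. No paired analysis was possible because the replicate numbers used here follow the order of the samples and come from no label. With the pool as a term the medians were -0.02, 0.11 and 0.11 in the 3 comparisons. With the level of Y-linked reads as a term they were -0.0085, 0.11 and 0.12. The letter and code of the file names were added as alternatives after the values were seen. Depth limits the rows of few counts, RPS16_2, RPL15 and RPS21_2.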
